A study of Mus musculus with 40 samples.

Results

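The genes followed here were 9 genes of TGF-beta signalling and fibrosis: the ligands Tgfb1, Tgfb2 and Tgfb3, the activin A subunit Inhba, the matricellular effector Ctgf, the smooth muscle actin Acta2, the matrix genes Postn and Fn1, and the crosslinking enzyme Lox. They were taken as every probe that carried one of these symbols in the deposited table of fold changes, which gave 14 probes for 9 of 29411 symbols, on an array of 40628 probes. Acta2 and Fn1 had 3 probes each, Lox had 2 and the others had 1. The brightest probe stands for a gene, and values of the further probes are given beside many of the comparisons.

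The arrays measured RNA of what the labels call subcutaneous SVCs (stromal vascular cells), from C57BL/6J mice, weaned at an age of 3 to 4 weeks and fed for up to 18 weeks after a run of early time points. Groups of 30 animals received a low fat diet with 10% of calories from fat (LFC), a high-fat high-sucrose diet with 60% (HFC), or HFC with 5, 20 or 75 micrograms of the ethano-botanical formulation Kal-1 (HF5, HF20 and HF75). There were 11 LFC and 11 HFC arrays, at days 1, 6, 10 and 14 and at weeks 0, 3, 6, 9, 12, 15 and 18, where week 0 and day 14 are the same time and later weeks count from it. HF5 had 6 arrays, at weeks 3 to 18, and HF20 and HF75 had 5 each, at weeks 3 to 15. Each diet and time point thus had 1 array, and it is not stated how many mice an array stands for, nor whether arrays came from separate animals, although the design text speaks of 3 biological replicates. The 2 arrays labelled HF20 and HF75 at week 18 were not used, because their labels conflict, which left 38 of 40 arrays.

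TGF-beta is secreted in a latent form, held in the matrix by binding proteins, and after release it signals through serine/threonine kinase receptors and Smad proteins. In fat tissue it is known for holding back adipocyte formation and for turning stromal cells into matrix-producing myofibroblasts, which carry smooth muscle actin. Activins are related ligands that use their own receptors and the same Smads.

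Levels are given as log2 of the intensity relative to the 75th percentile of the same array, so that 0 is the level of that percentile and 1 unit is a 2-fold difference. Levels were compared between arrays for the same probe, not between genes. The gene said to lead a marker list had the brightest probe on average, which is no ranking of expression between genes. A value that was not well above background is an upper bound on the level.

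The design text calls the material infiltrating macrophages. Of the macrophage markers, 9 of 9 measured were above background on 50% of the arrays or more, led by Cd14, and their summed level, in multiples of the 75th percentile, ran from 6.63 to 41.2 over LFC arrays and from 4.70 to 73.2 over HFC arrays. Of the fibroblast markers, 10 of 10 were above background, led by Dcn, with a summed level of 13.2 to 645 in LFC and 165 to 424 in HFC. Pericyte and smooth muscle markers were also above background for 10 of 10 genes, led by Tagln, with 2.37 to 370 in LFC and 42.1 to 252 in HFC. Adipocyte markers (10 of 10, led by Fabp4) had a summed level of 1.74 to 1311 in LFC and 100 to 1828 in HFC, and endothelial markers (8 of 8, led by Vwf) were measured in the same arrays. Skeletal muscle markers (8 of 8, led by Acta1) had a summed level of up to 668 in LFC and 339 in HFC. All markers measured of T cells, B cells, lymph node and epithelium were above background on 50% of the arrays or more, and 4 of 5 of erythroid cells. No marker of these lists was missing from every array, so the arrays held RNA of many cell types and not of macrophages alone. In such bulk samples, fewer cells of a type and less RNA per cell cannot be told apart.

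A few arrays stood apart. On the LFC array of week 3 the 75th percentile of the intensities was 7.86, against 161 to 2044 on the others, and 16.8% of the probes were well above background. Of the 9 genes, 6 were not well above background on it. The LFC array of day 14 had 9104 outlier spots and a median rank correlation of 0.46 with the other arrays, and its Lox spot was dropped. The Acta2 spot of LFC day 10 was dropped too. On the LFC array of week 18 the mean level of the pericyte and smooth muscle markers was -5.13 and that of the fibroblast markers -3.38, both the lowest of all arrays, and on the HF5 array of week 3 the pericyte and smooth muscle mean was -2.28. Many of the differences below are also given without these arrays.

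Among the ligands, Tgfb1, the most widely expressed isoform, stayed within a narrow range of levels. It lay between -1.88 and 0.50 in LFC (median -0.76), between -1.84 and -0.16 in HFC (median -0.63), and between -1.72 and 0.34 in HF5 (median -0.80). The 5 HF20 arrays ran from -2.12 at week 15 to -0.55 at week 3, and the 5 HF75 arrays from -2.29 at week 6 to -0.78 at week 9. All diets overlapped, and the highest value of all, LFC at week 18, came from the array with the least stromal marker RNA.

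Tgfb2, an isoform with a more restricted tissue distribution, spanned a wider range of levels. Its LFC levels ran from at most -6.79 at week 18 through a median of -1.56 to at most -0.03 at week 3, where the bound comes from the weak array. In HFC it lay between -4.05 at day 1 and 0.23 at week 12, with a median of -1.33. Tgfb3, the isoform linked to mesenchymal tissue, was well above background on 38 of 38 arrays. It ran from -3.31 (median 2.28) to 4.29 in LFC and from 0.18 (median 3.54) to 4.25 in HFC, and the lowest array of each diet was week 18 in LFC and day 1 in HFC. Inhba, which encodes the beta A subunit of activin A, spanned from at most -4.51 at day 6 to 2.85 at week 6 in LFC (median 0.01) and from -3.42 at day 1 to 2.41 at week 6 in HFC (median 0.15). Week 6 was its highest time point in every diet, and the diets overlapped over nearly the whole range.

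Ctgf, a secreted matricellular protein that is a classical TGF-beta target, ran from -5.46 at week 18 to 5.55 at week 6 in LFC (median 2.21) and from 0.37 at day 1 to 4.98 at week 6 in HFC (median 4.10). Acta2, the actin of smooth muscle and myofibroblasts, was measured on 37 arrays and was saturated on 15 of them, where differences are compressed. Its LFC levels ran from -1.78 at week 18 through a median of 3.97 to 6.99 at week 6, and its HFC levels from 3.47 at day 1 through 6.32 to 7.34 at day 10. In both genes the ranges of the diets overlapped, and LFC reached lower than HFC.

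Postn, a matrix protein of fibroblasts that binds collagen, ran from -3.33 at week 18 through a median of 2.90 to 5.18 at week 0 in LFC, and from 2.36 at week 18 through 4.09 to 5.29 at day 10 in HFC. Fn1, which encodes fibronectin, lay between -0.84 and 2.80 in LFC (median 0.71) and between -1.45 and 3.33 in HFC (median 1.78). Lox, the enzyme that crosslinks collagen and elastin, lay between at most -6.79 and 0.61 in LFC (median -0.18, 10 arrays) and between -1.73 and 1.04 in HFC (median -0.08). The LFC and HFC ranges of all 3 genes overlapped.

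**Figure D1:**
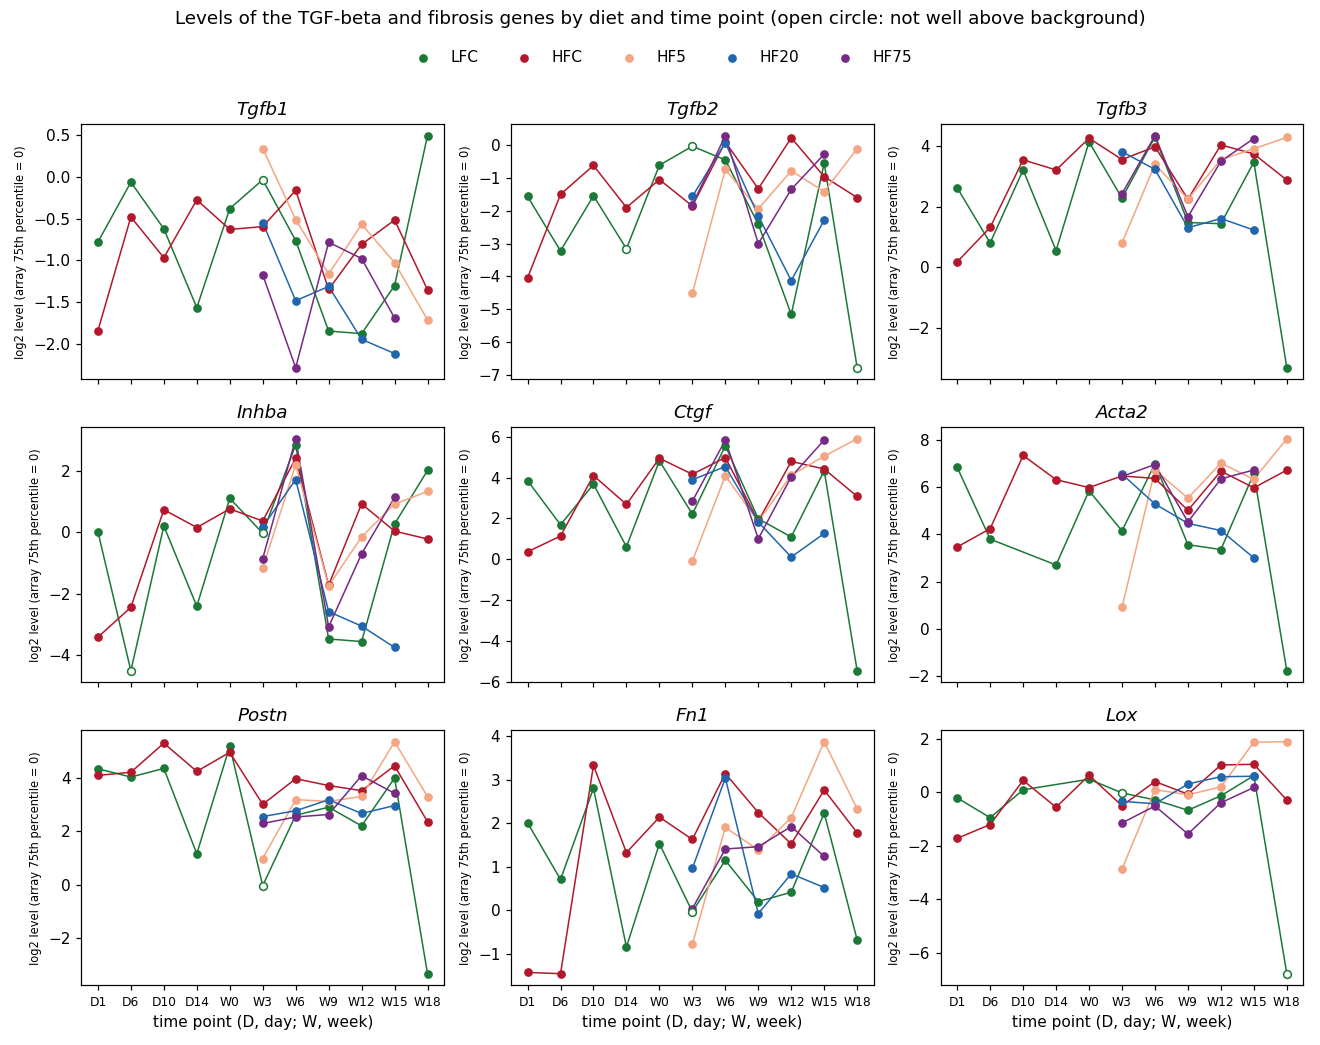
Level of each gene (log2, 0 is the 75th percentile of the array) at each time point, 1 array per point, coloured by diet; open circles were not well above background. The LFC array of week 18 is the lowest point for Ctgf (-5.46), Acta2 (-1.78), Tgfb3 (-3.31) and Postn (-3.33), and the highest for Tgfb1 (0.50).

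At weeks 6 to 15 every diet had 4 arrays and none of the LFC and HF5 arrays named above, although HF75 at week 9 was the lowest of its diet for Acta2. There the mean level of Tgfb1 fell into the order HFC (-0.71, SD 0.50), HF5 (-0.82, SD 0.33), HF75 (-1.44, SD 0.69), LFC (-1.45, SD 0.53) and HF20 (-1.72, SD 0.38). Postn followed the same order, with 3.91 (SD 0.40) in HFC, 3.74 (SD 1.08) in HF5, 3.16 (SD 0.73) in HF75, 2.92 (SD 0.77) in LFC and 2.89 (SD 0.23) in HF20. For Acta2 the order was HF5 (6.40, SD 0.64), HF75 (6.14, from 4.53 to 6.96), HFC (6.01, SD 0.72), LFC (5.12, SD 1.93) and HF20 (4.23, SD 0.95). In each of these orders, and in those of the other 6 genes, neighbouring diets differed by less than the larger of their SDs. These SDs hold the variation between weeks, so this does not bear on diets further apart or on differences at matched weeks. For Ctgf the means ran from 4.17 (SD 2.28) in HF75 to 1.93 (SD 1.88) in HF20. The Tgfb3 means ran from 3.49 (SD 0.84) in HFC to 1.84 (SD 0.94) in HF20, and those of Inhba from 0.41 (SD 1.73) in HFC to -1.92 (SD 2.47) in HF20. HFC was highest and LFC lowest for Tgfb2, from -0.49 (SD 0.77) to -2.14 (SD 2.21), and for Fn1, from 2.42 (SD 0.70) to 1.00 (SD 0.92). Lox ran from 0.59 (SD 0.54) in HFC to -0.58 (SD 0.73) in HF75. HFC thus had the highest mean for 7 of the 9 genes and HF20 the lowest for 6.

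The comparison of HFC with LFC asks what the high-fat diet did to these genes over time. Postn was higher in HFC at 9 of 11 time points, and the largest mean differences were those of Acta2 and Postn, but no gene passed the test. In the limma fit over all probes, with the time point as a block, 0 of 29267 probes (0%) had a Benjamini-Hochberg adjusted p under 0.05, with 907 at an unadjusted p under 0.05 and 0 by a t-test. The study's own t-test set 3 control against 3 treated values, while the t-test here used the same arrays and values as limma, over all time points, so it is not that test. The mean log2 difference of Postn was 1.49 (SE 0.47, 95% interval 0.49 to 2.49, unadjusted limma p 0.00593, adjusted p 0.94). An exact two-sided sign-flip permutation test over the 11 pairs gave p = 0.00781 for Postn, not adjusted for the 9 genes.

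Postn was the only one of the 9 for which that exact test gave a p under 0.05. Without the pairs of day 14, week 3 and week 18, the mean difference of Postn was 0.57, with 6 of 8 pairs higher in HFC and an exact p of 0.0625. Over those 8 pairs it ran from -0.25 at day 1 to 1.36 at week 6. From week 3 on Postn was higher in HFC at 6 of 6 time points, by at least 3.04 at week 3, where the LFC value is a bound.

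Acta2 was higher in HFC in 7 of 10 pairs, with a mean difference of 1.52 (SE 0.82, adjusted limma p 0.94). Its difference was 8.50 at week 18 and 3.61 at day 14, and without the pairs of the 3 arrays that stood apart the mean was 0.11 over 7 pairs. The further Acta2 probes gave 1.41 and 0.43. Ctgf gave 1.11 (SE 0.75) over 11 pairs and -0.05 over the 8 others, and Tgfb3 gave 1.08 (SE 0.55) and 0.23. For Tgfb2 the means were 1.00 (SE 0.63) and 0.79, for Lox 0.76 (SE 0.57) and 0.20, for Fn1 0.68 (SE 0.48) and 0.15, and for Inhba 0.46 (SE 0.56) and 0.55. Tgfb1 differed by -0.02 (SE 0.31), and by 0.11 without those pairs. Of its 11 pairs 5 were higher in HFC, and that of week 3 has no order. The mean differences of Acta2, Ctgf, Tgfb3, Lox and Fn1 thus shrank without the arrays that stood apart, and that of Postn shrank less. The pairs left still held day 1, the lowest pair for Acta2 (-3.38), Ctgf (-3.48), Tgfb3 (-2.44), Lox (-1.51) and Fn1 (-3.43). Without day 1 alone the means were 2.06, 1.56, 1.44, 1.01 and 1.09, so they depended on that pair too.

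The probes of Fn1 gave different sizes. The brightest differed by 0.68, and the others by 0.30 and -0.04. Both Lox probes were higher in HFC on average, by 0.76 and 1.05.

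**Figure D2:**
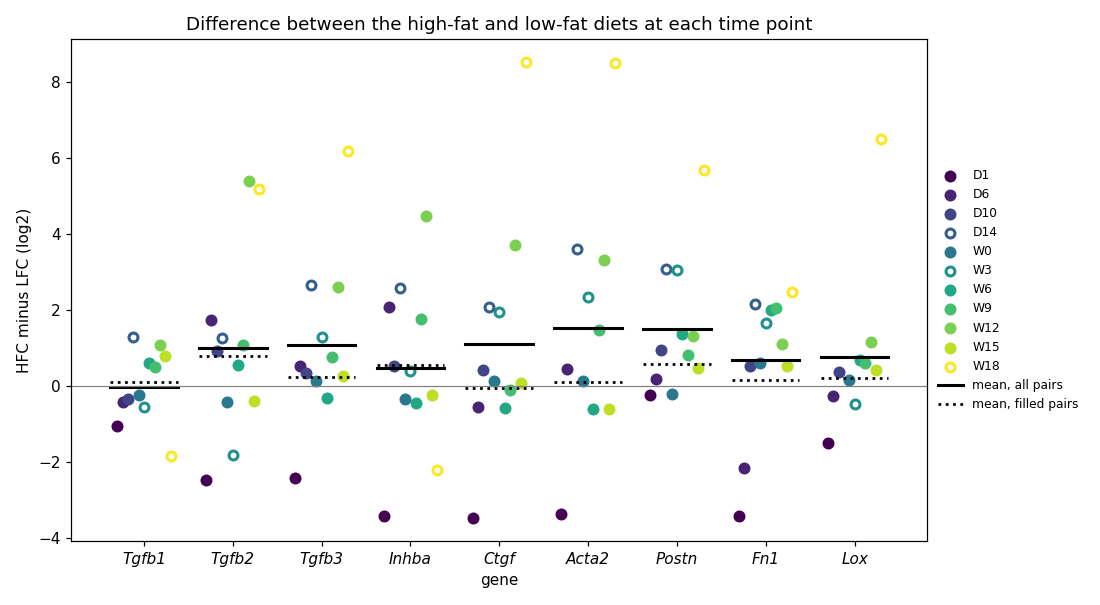
Difference of HFC from LFC (log2) for each gene, 1 point per time point, with the mean over all pairs (solid) and over the pairs drawn filled (dotted); open points are day 14, week 3 and week 18. The mean of Acta2 moves from 1.52 to 0.11 and that of Postn from 1.49 to 0.57 without the open points, and 3 of the open points at week 3 (Tgfb1, Tgfb2, Lox) have no order because the LFC value is a bound.

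The number of the 9 genes at least 2-fold apart differed between time points. A single array per diet gives such differences no replicate error, so they are set beside the share of all measured genes that lay at least 2-fold apart, and in the same direction. At day 1, 8 of 9 genes were at least 2-fold lower in HFC and 0 were higher, where 57.5% of all genes were at least 2-fold apart and 19.4% lower. The arrays of day 1 were scanned on different days, unlike those of every other HFC and LFC pair. Diet and scan day cannot be told apart there, and 81.6% of the probes were well above background in HFC and 66.1% in LFC. At day 6, 2 were higher and 1 lower (53.3% of all genes apart, 40.7% higher and 12.6% lower). At day 10, 0 of 8 were 2-fold apart (23.1%), although 7 of 8 were higher by less, beside 48.5% of all genes higher by any amount. At day 14, 8 of 8 were at least 2-fold higher (80.3% apart, 37.6% higher), on the pair that includes the LFC array with outlier spots. At week 0, the same time in the methods, 0 of 9 were 2-fold apart (6.52%).

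At week 3, 5 genes were at least 2-fold higher in HFC and Tgfb2 was lower (69% apart, 11.4% higher and 57.6% lower), but of these the Tgfb2 value has no order, since its LFC bound lies above the HFC level. At week 6, Fn1 and Postn were at least 2-fold higher and 0 were lower (24% apart, 12.1% higher). At week 9, Fn1, Inhba, Acta2 and Tgfb2 were higher (15.2% apart, 7.31% higher). At week 12, 9 of 9 were higher (46.9% apart, 23.3% higher), led by Tgfb2 at 5.39 and Inhba at 4.48. At week 15, 0 of 9 were 2-fold apart (24.7%), with 6 of 9 higher by less, beside 45.4% of all genes higher by any amount. At week 18, 7 were higher and 2 lower (47.1% apart, 26.5% higher and 20.6% lower), the lower ones being Tgfb1 at -1.85 and Inhba at -2.23.

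Markers differed at these time points too. The digestion response genes, immediate-early and heat shock genes known to be induced when tissue is dissociated (9 of 9 measured above background, led by Junb), had a mean level of 0.37 in HFC and 4.91 in LFC at day 1, where the 9 genes were lower in HFC. At week 12, where the 9 genes were higher in HFC, the list had a mean level of 5.37 in HFC and -0.16 in LFC. Its summed level ran from 13.6 to 540 over LFC arrays and from 20.4 to 547 over HFC arrays. At week 12 the adipocyte markers had a mean level of 2.99 in HFC and 5.11 in LFC. The skeletal muscle markers were further apart there, at 5.08 in HFC and -4.45 in LFC. At day 1 the lymph node markers were at -4.99 in HFC and 1.89 in LFC. The T cell markers were at -4.13 and 1.16 on those arrays, and the B cell markers at -4.15 and 0.88. Over the 11 pairs, the mean HFC minus LFC difference was 1.39 for the digestion response genes, 1.12 for the pericyte and smooth muscle markers and 0.95 for the fibroblast markers. Without the 3 pairs it was 0.96, 0.26 and 0.04. For the endothelial markers it was 1.03 over the 11 pairs and 0.31 without the 3, and for the adipocyte markers 0.79 and -0.14. Over the 11 pairs it was 0.23 for macrophage and 0.09 for skeletal muscle markers. The T cell, B cell, lymph node, epithelial and erythroid lists were lower in HFC on average, from -0.02 for T cell to -0.99 for epithelial markers. The part of these markers in the differences of the 9 genes was not tested.

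The time course of the control diets was compared as weeks 3 to 18 against day 1 to week 0, with the diets pooled. Postn was lower late, by a log2 difference of -1.74 (SE 0.69, unadjusted limma p 0.0192, adjusted p 1), and Inhba was higher by 0.97 (SE 0.86). The others differed by 0.35 (Fn1) or less. The further probes of Fn1 gave -0.30 and -0.23, those of Acta2 0.50 and 0.17 beside -0.11, and that of Lox 0.06 beside -0.09. Over all probes 0 of 30263 (0%) passed in limma, with 960 at an unadjusted p under 0.05 and 0 by the t-test. Time on the diet, age and day of processing cannot be told apart here.

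The difference of HFC from LFC was then compared between late and early time points. It was larger late for 9 of 9 genes, by 2.54 (SE 1.40) for Ctgf, 2.19 (SE 1.63) for Acta2, 2.09 (SE 0.84, unadjusted p 0.0247) for Fn1 and 0.25 (SE 0.64) for Tgfb1. The median over the 9 genes was 1.56, and -0.52 over all probes. With normexp background correction these were 1.29 and 0.68, so the median over all probes turned direction. The median over the 9 genes was 0.79 without week 18 and 1.00 without day 1. In the 4 pairs on the same slide (day 6 and weeks 0, 3 and 9) it was 0.70, and 175 of 30631 probes passed in limma. Week 3, 1 of the late pairs there, holds the weak LFC array. Tgfb2 was at -1.015 in those pairs, but its week 3 difference has no order. The adjusted limma p-values of the 9 ran from 0.792 to 0.936. Over all pairs 0 of 29267 probes (0%) passed, with 1489 at an unadjusted p under 0.05 and 0 by the t-test. For Fn1, the mean HFC minus LFC difference was -0.46 over the 5 early pairs and 1.63 over the 6 late ones, where HFC was higher in 6 of 6. For Postn the means were 0.75 and 2.11. Without day 1 the late minus early difference was 1.00 for Acta2, 1.35 for Fn1 and 1.74 for Ctgf, and that of Inhba turned from 0.34 to -0.58. Without day 14, week 3 and week 18 it was 1.64 for Ctgf, 1.82 for Acta2 and 2.53 for Fn1. With quantile normalization it turned to -0.47 for Tgfb1 and to -0.46 for Inhba. The further probes gave 1.86 and 0.77 for Acta2, and 0.89 for Lox, under 50% of the difference by its brightest probe.

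The comparisons of the Kal-1 doses with HFC ask whether the formulation changed these genes on the high-fat diet. All of them use the same HFC arrays at matched weeks, so they are not independent of each other. In HF5, the 9 genes differed from HFC by -0.68 (Tgfb2, SE 0.45) to 0.02 (Tgfb1, SE 0.23). Their median turned from -0.37 to 0.54 in the 3 pairs on the same slide (weeks 12, 15 and 18), with 8 of 9 positive. Those pairs leave out week 3, and without week 3 alone the median was 0.10, with 7 of 9 positive. In limma 0 of 29200 probes (0%) passed, with 1432 at an unadjusted p under 0.05 and 0 by the t-test, and the adjusted p-values of the 9 genes ran from 0.964 to 0.994. A single week carried most of these means. At week 3, where the pericyte and smooth muscle mean was -2.28 in HF5 and 2.64 in HFC, 8 of 9 genes were at least 2-fold lower in HF5, as were 21% of all genes measured, with Acta2 at a log2 difference of -5.57 and Ctgf at -4.25. At week 18, 6 of 9 genes were at least 2-fold higher, beside 11.4% of all genes, with Ctgf at 2.82 and Lox at 2.18.

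The Acta2 levels in HF5 were 0.91, 6.72, 5.53, 7.02, 6.33 and 8.05 from week 3 to week 18. Only week 3 lay below the range of the HFC arrays. Without week 3 the mean difference of Acta2 was 0.58, higher in HF5 in 5 of 5 pairs, that of Ctgf was 0.37, and that of Tgfb2 was -0.29. Without week 18 as well, that of Ctgf turned to -0.24, that of Tgfb2 was -0.73 and that of Acta2 was 0.39. The Acta2 difference at weeks 6, 9, 12 and 15 lay between 0.34 and 0.52. The further Acta2 probes gave -1.07 and -0.14 over the 6 pairs, and 0.12 without week 3, higher in 3 of 5 pairs, and 0.18, higher in 4 of 5. The mean of Postn was 0.05 and that of Fn1 was 0.03 without week 3. The summed pericyte and smooth muscle level ran from 5.00 to 290 over the HF5 arrays. The epithelial markers (6 of 6 above background, led by Krt18) were higher in HF5 in 4 of 6 pairs, by 1.59 on average, with a summed level of 0.202 to 134 and a median of 1.36 in the fit, 6 of 6 positive. The digestion response genes had a median of -0.43, with 0 of 9 positive, and a summed level of 32.4 to 695. For the differences of the 9 genes, the part of these lists was not tested.

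In HF20, all 9 genes were lower than in HFC on average, and for Tgfb2, Tgfb3, Inhba, Ctgf and Acta2 the largest differences were those of weeks 12 and 15. No gene passed: in limma 0 of 30832 probes (0%) had an adjusted p under 0.05, with 3791 at an unadjusted p under 0.05 and 0 by the t-test. The median difference of the 9 genes was -1.25, and 0.08 over all probes tested. With normexp background correction these were -1.04 and -0.32, so the median over all probes turned direction. The Inhba levels were 0.17, 1.71, -2.59, -3.06 and -3.75 at weeks 3, 6, 9, 12 and 15 in HF20, and 0.36, 2.41, -1.72, 0.92 and 0.03 in HFC. HF20 was lower at every week, by less than 1 unit up to week 9 and by almost 4 units afterwards. The mean difference of Inhba was -1.90 (SE 0.63, adjusted limma p 0.398).

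Ctgf in HF20 was at 3.89, 4.54, 1.82, 0.11 and 1.26, against 4.16, 4.98, 1.86, 4.79 and 4.42 in HFC, with a mean difference of -1.72 (SE 0.70). The weeks 3 to 9 lay close together and weeks 12 and 15 far apart. Postn in HF20 was at 2.55, 2.77, 3.18, 2.67 and 2.96, against 3.01, 3.96, 3.71, 3.52 and 4.45 in HFC, with a mean difference of -0.90 (SE 0.21, unadjusted limma p 0.00293, adjusted p 0.398). Its HF20 levels were the most even of all the diets, and HFC lay above HF20 at each week. Fn1 in HF20 was at 0.96, 3.04, -0.07, 0.84 and 0.52, against 1.63, 3.14, 2.24, 1.53 and 2.76 in HFC, with a mean difference of -1.20 (SE 0.37).

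Inhba, Ctgf, Postn and Fn1 were lower in HF20 in 5 of 5 pairs. The further Fn1 probes gave -1.54, lower in 5 of 5, and -1.20, lower in 4 of 5, with 0.91 at week 6. The exact two-sided sign-flip permutation test gave p = 0.0625 for each of these 4, the smallest value that 5 pairs allow. Acta2 differed by -1.41 (SE 0.45), Tgfb3 by -1.27 (SE 0.42), Tgfb2 by -1.25 (SE 0.65), Tgfb1 by -0.80 (SE 0.33) and Lox by -0.23 (SE 0.24). By the brightest probe Lox was under 2-fold apart at every week. Its other probe gave -0.48, with -1.43 at week 6, and the further Acta2 probes gave -0.51 and -1.60. The number of genes at least 2-fold lower was 0 at week 3, 3 at week 6, 1 at week 9, 6 at week 12 and 8 at week 15, beside 9.2%, 17.4%, 3.49%, 19.9% and 19.4% of all genes measured.

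Other markers moved with HF20. The digestion response genes were lower than in HFC in 4 of 5 pairs, with a mean difference of -2.64, and their mean level was 0.49, -0.88 and 2.11 at weeks 9, 12 and 15 in HF20 and 3.41, 5.37 and 5.20 in HFC. Their summed level ran from 9.05 to 421 in HF20. The adipocyte markers were higher in 5 of 5 pairs, by 0.28 to 3.85, with a summed level of 58.0 to 558 in HF20. Fibroblast markers differed by -0.64 and macrophage markers by -0.61, both lower in 5 of 5 pairs, and pericyte and smooth muscle markers by -0.55. Skeletal muscle markers were higher in HF20 in 4 of 5 pairs, but at week 12 they were at -3.07 in HF20 and 5.08 in HFC. The part of these markers in the lower levels of the 9 genes was not tested.

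In HF75, the largest differences from HFC were those of the matrix genes Lox and Fn1. Lox was at -1.15, -0.52, -1.57, -0.40 and 0.17 at weeks 3, 6, 9, 12 and 15 in HF75, and at -0.51, 0.39, -0.08, 1.01 and 1.04 in HFC. It was lower in HF75 at each week, and the ranges of the diets overlapped. The mean difference of Lox was -1.07 (SE 0.23, 95% interval -1.60 to -0.53, unadjusted limma p 0.00205, adjusted p 0.0945), and -1.13 (adjusted p 0.136) by its other probe. The exact sign-flip permutation test gave p = 0.0625 for Lox, the smallest value 5 pairs allow. In limma 326 of 28913 probes (1.13%) passed in this comparison, 259 of them higher in HF75 and 67 lower, and 0 of the 9 genes were among them. This count rested on the time point as a block: 1 probe passed without it, 0 by the t-test, and 37 when week 3 was left out. The arrays of a week, after the group means were subtracted, had a correlation of -0.011 at week 9 and -0.031 at week 15 for HF75 with HFC, and of 0.141 to 0.557 at the other weeks.

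Fn1 in HF75 was at 0.04, 1.41, 1.46, 1.92 and 1.24, against 1.63, 3.14, 2.24, 1.53 and 2.76 in HFC. It was lower in 4 of 5 pairs, with a mean difference of -1.05 (SE 0.34, adjusted limma p 0.228). The dimmer Fn1 probes differed by -1.91 (adjusted p 0.107) and -2.15 (adjusted p 0.139), lower in 5 of 5 pairs, although the dimmest was not well above background on 2 of the 5 HF75 arrays. Postn differed by -0.74 (SE 0.31, adjusted p 0.334) and Tgfb1 by -0.70 (SE 0.40), each lower in 4 of 5 pairs. Inhba differed by -0.49 (SE 0.46), Tgfb2 by -0.47 (SE 0.41), Tgfb3 by -0.27 (SE 0.29), Ctgf by -0.13 (SE 0.43) and Acta2 by 0.10 (SE 0.27). The further Acta2 probes gave 0.08 and -0.36.

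The arrays of HF75 and HFC were scanned on the same day only at weeks 12 and 15. In those pairs the mean difference was -1.14 for Lox, lower in both, -0.56 for Fn1 and -0.23 for Postn. With the scan day as a block, a fit that rests on those 2 pairs, 0 probes passed. Macrophage markers were lower in HF75 in 5 of 5 pairs, with a mean difference of -0.86 and a summed level of 11.4 to 26.2, and fibroblast markers differed by -0.68, with a summed level of 316 to 388. Epithelial markers (6 of 6 above background, led by Krt18) were higher in 5 of 5 pairs, by 1.37, with a summed level of 2.26 to 101. The part of these markers was not tested.

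**Figure D3:**
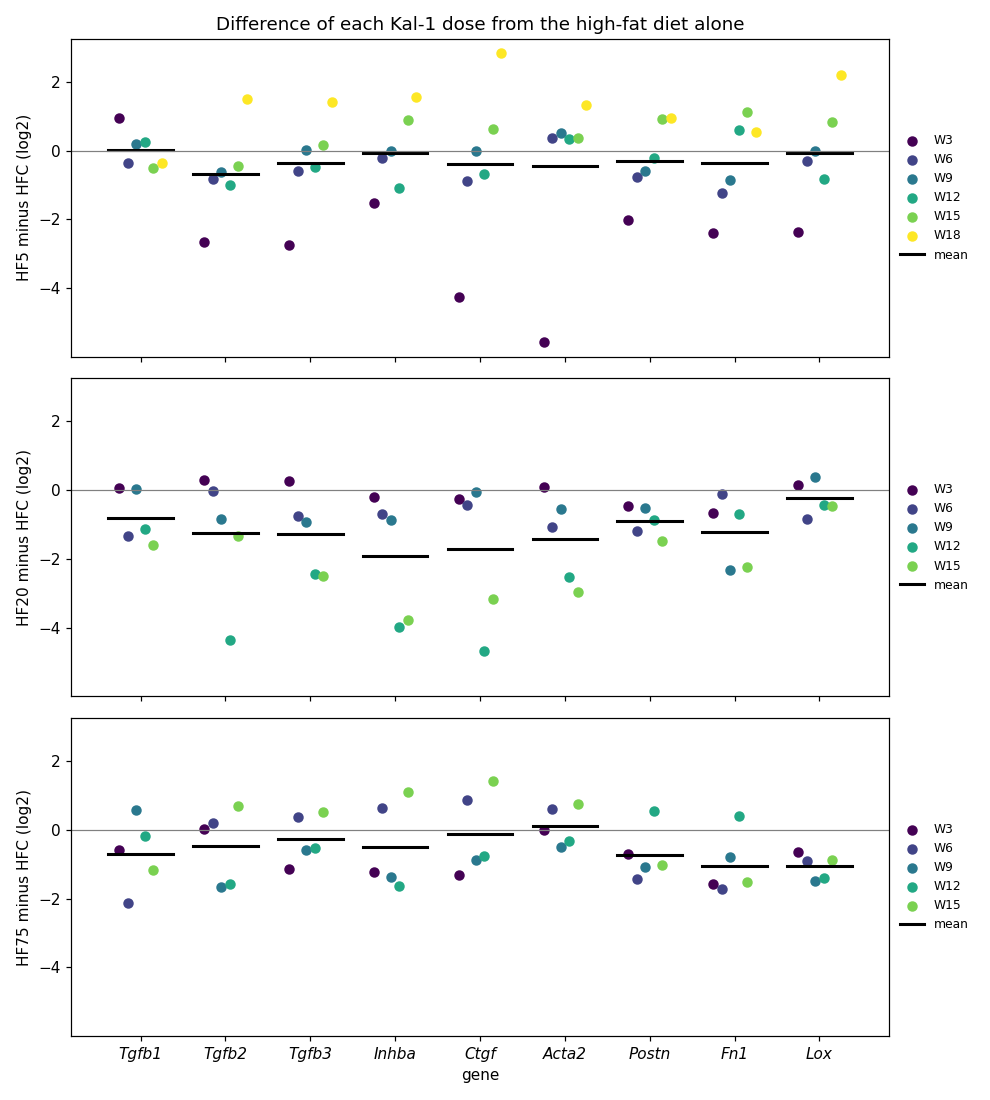
Difference of each Kal-1 dose from HFC (log2) for each gene, 1 point per week, with the mean as a bar; all doses share the HFC arrays. Lox in HF75 lies below 0 at 5 of 5 weeks (mean -1.07), Inhba, Ctgf, Postn and Fn1 in HF20 lie below 0 at 5 of 5 weeks, and week 3 is the lowest point of Acta2 (-5.57) and Ctgf (-4.25) in HF5.

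Other genes of the pathway were read from fixed lists of receptors, Smads, latent complex genes, activin family and secreted inhibitors, TGF-beta response genes, smooth muscle genes and matrix genes. In HFC against LFC, 0 genes of any list passed. The median log2 difference was 0.20 over 9 receptors and co-receptors (largest Acvr1b at -0.87 and Eng at 0.78), and 0.19 over 10 Smads and Smad regulators (Smad7 at 0.88 and Skil at 0.69). It was 0.65 over 11 latent complex and activation genes tested (Ltbp1 at 1.37 and Lrrc32 at 1.28), with Itgb6 not well above background on enough arrays. It was 0.54 over 10 activin family genes and secreted inhibitors (Fstl1 at 2.30 and Dcn at 1.27), and 0.92 over 10 response genes (Cyr61 at 1.81). The 14 smooth muscle and myofibroblast genes had a median of 0.99, with 14 of 14 positive (Myh11 at 1.91 and Cnn1 at 1.73). The 19 matrix and crosslinking genes had a median of 0.90, with 17 positive (Fbln2 at 2.04 and Loxl1 at 1.55). The median over all probes tested was -0.07. Without the pairs of day 14, week 3 and week 18 most of these medians shrank. They were then 0.13 for smooth muscle genes, with 10 of 14 positive, 0.46 for matrix genes, with 18 of 19 positive, and 0.41 for response genes. Latent complex genes had 0.16 over 12 tested, Smads 0.12, receptors 0.25, and the activin family and secreted inhibitors 0.145. The 9 genes themselves went from a median of 1.00 to 0.20. Ctgf, Acta2, Postn, Fn1 and Lox are themselves on these lists, and the pericyte list shares genes such as Myh11, Cnn1 and Tagln with the smooth muscle list.

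In HF5 against HFC 0 genes of the lists passed. The medians were -0.24 for receptors (Acvr1b at 0.79 and Acvrl1 at -0.59), 0.05 for Smads (Smad6 at -0.51 and Smad4 at 0.34), -0.21 for latent complex genes (Ltbp4 at -0.64 and Thbs1 at 0.64) and -0.13 for the activin family (Inhbb at 0.74 and Fstl1 at -0.72). They were -0.48 for response genes (Cyr61 at -1.13 and Wisp2 at -0.83), -0.51 for smooth muscle genes (Myh11 at -0.94 and Cnn1 at -0.93) and -0.37 for matrix genes (Fbn1 at -1.08 and Loxl2 at -0.87). The median over all probes was close to 0. The medians of 5 lists turned direction without week 3. They were then 0.28 for smooth muscle genes, with 13 of 14 positive, 0.15 for receptors, 0.18 for latent complex genes and 0.16 for the activin family, and Smads turned from 0.05 to -0.10. Matrix genes were near 0, with 9 of 19 positive, and response genes had -0.12. Over the 6 pairs the mean of the smooth muscle genes was higher in HF5 in 4, with the lowest difference, -4.61, at week 3.

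In HF20 against HFC 0 genes of the lists passed either. Among the pathway lists the largest median was that of the response genes, at -1.54 (Cyr61 at -2.04 and Junb at -1.75), followed by the smooth muscle genes at -1.07, with 0 of 14 positive (Cnn1 at -1.74 and Myh11 at -1.72). The activin family and secreted inhibitors had -0.84 (Fmod at -1.45 and Fst at -1.30) and the matrix genes -0.79 (Fbln2 at -1.66 and Vcan at -1.51). Latent complex genes had -0.35 (Thbs1 at -1.81 and Lrrc32 at -1.10), Smads -0.28 (Tgif1 at -1.41 and Smad7 at -1.04), and receptors -0.13 (Acvr1b at 0.84 and Acvr2a at -0.73). Junb is also one of the digestion response genes. Some marker lists had larger medians, -2.69 for the digestion response genes, -1.68 for the T cell markers, with 2 of 7 positive, and -1.56 for the lymph node markers, with 1 of 6 positive, and their part was not tested.

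In HF75 against HFC the lists held 3 genes that passed, 2 of 18 matrix genes tested and 1 of 12 latent complex genes, where 1.13% of all probes passed. Fbn1, the main protein of microfibrils, fell by 2.04 on the log2 scale (adjusted limma p 0.0262), and Loxl1, an elastin crosslinking enzyme, fell by 2.04 (adjusted p 0.028). Bmp1, a protease that matures procollagens and pro-lysyl oxidase, fell by 1.14 (adjusted p 0.0438). The fibroblast marker Dpt, a matrix protein, fell by 2.43 (adjusted p 0.028). With the scan day as a block the adjusted p was 0.587 for Fbn1, 0.406 for Loxl1, 0.707 for Bmp1 and 0.372 for Dpt, so none of these calls held under it. The differences were then -1.75 for Fbn1, -1.69 for Loxl1, -1.18 for Bmp1 and -2.73 for Dpt. All 4 calls were also lost without the time point as a block (adjusted limma p 0.0704 for Fbn1, 0.0824 for Loxl1, 0.184 for Bmp1 and 0.119 for Dpt) and by the t-test (adjusted p 0.208 to 0.25). Bmp1 was lost with normexp background correction (adjusted limma p 0.113) and with a filter on every array (adjusted limma p 0.0576) too. Leaving out 1 week at a time lost Fbn1 in 3 of 5 fits and Loxl1, Bmp1 and Dpt in 4 of 5 each.

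The matrix and crosslinking genes had a median of -0.79 over 18 tested, with 2 positive. Receptors had a median of -0.52 over 8 (Acvrl1 at -1.45 and Acvr2b at -0.84), Smads -0.04 (Smad6 at -0.87 and Smad3 at -0.63) and latent complex genes -0.29. The activin family and secreted inhibitors had -0.34 (Bgn at -1.48 and Fmod at -1.31), response genes -0.27 and smooth muscle genes 0.05 (Actg2 at 0.87 and Smtn at -0.76). With the scan day as a block, which rests on weeks 12 and 15, the median of the response genes turned to 0.24, with 6 of 10 positive. That of the smooth muscle genes was then 0.18, of the activin family -0.65 and of Smads -0.20. The median over all probes was -0.01.

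Late against early, 0 genes of the lists passed, and the medians were -0.27 for receptors (Acvr1b at -0.96 and Eng at -0.94), 0.15 for Smads (Smad7 at 1.06 and Smurf1 at 0.52), -0.07 for latent complex genes (Itgb8 at -1.43 and Ltbp1 at 1.13) and -0.16 for the activin family (Fstl1 at -0.96 and Inhbb at 0.81). The response genes had 0.01 (Wisp2 at 1.34), smooth muscle genes -0.06 (Actg2 at 0.83 and Mylk at -0.54) and matrix genes -0.55 (Eln at -2.21 and Postn at -1.74), beside 0.01 over all probes. Without day 14, week 3 and week 18 the smooth muscle median turned to 0.14 and the matrix median was -0.08. The adipocyte markers were lower late, with a median of -1.98 and 1 of 10 positive, as were the lymph node markers at -1.67 and the endothelial markers at -0.82. Their part was not tested.

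For the late minus early difference of the diet effect, 0 genes of the lists passed as well. The medians were 1.72 for smooth muscle genes (Cnn1 at 2.93 and Myh11 at 2.61), 1.60 for matrix genes (Mfap5 at 2.80 and Loxl1 at 2.54), 1.27 for the activin family and secreted inhibitors (Grem1 at 3.90 and Fstl1 at 2.61) and 1.14 for response genes (Cyr61 at 2.69). Latent complex genes had 0.77 (Thbs1 at 1.36 and Bmp1 at 1.26), receptors -0.08 (Acvr1b at -1.40 and Eng at 0.77) and Smads -0.07 (Tgif1 at 1.11 and Smad7 at -0.90). Without day 1 the median was 0.34 for response genes, 1.05 for smooth muscle genes and 1.16 for matrix genes. The fibroblast markers moved with them at 1.68, and the digestion response genes at 1.82. The largest marker medians were those of the T cell markers at 3.78, with 6 of 7 positive, the lymph node markers at 3.65, with 5 of 6, and the B cell markers at 3.53, with 6 of 6. What part these markers had was not tested.

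Across arrays, most pairs of the 9 genes had a positive correlation of their levels. These correlations are descriptions over 36 arrays, without LFC day 14 and LFC week 3, and the arrays share their scaling, diets and time points. Values within scan days are those of the deviations from the mean of the day, over the 10 days with more than 1 of these arrays (31 arrays, 29 of 9 days for Acta2). Of 36 pairs of genes, 28 had a positive Pearson r, with a median of 0.62, and 29 within scan days, with a median of 0.65. All but 1 of the others involved Tgfb1. Without LFC week 18 and HF5 week 3, the farthest arrays in pericyte and smooth muscle markers, 35 of 36 were positive (median 0.48). The negative values of Tgfb1 therefore rested on those arrays. Without them its r ran from -0.04 with Lox to 0.45 with Postn, and r of Postn with Inhba, Ctgf, Acta2, Tgfb2 and Tgfb3 lay between 0.16 and 0.24. The highest r was that of Tgfb3 with Ctgf, at 0.97 (Spearman rho 0.95), 0.94 over 34 arrays without those arrays, and 0.98 within scan days. Inhba with Tgfb3 had r 0.54 over 36 arrays, rho 0.76, r 0.92 without those arrays and 0.40 within scan days.

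Postn with Acta2, over 35 arrays, had r 0.66 and rho 0.20, r 0.16 without those arrays and 0.89 within scan days, which hold both arrays, so that relation rests on them. Tgfb1 with Lox had the lowest r of all pairs, -0.42, with rho -0.19, r -0.04 without those arrays and -0.49 within scan days. Between probes of the same gene, r was 0.97 for Lox and 0.74 to 0.84 for Fn1. For Acta2 it was 0.92 between the brightest probe and one other, while the last probe had 0.56 and 0.63 with them.

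The genes most like each of the 9 in level, among 19107 others, were as follows. Tgfb3 was most like Ctgf (r 0.97), Myh11 (0.96) and Fam46b (0.95). Ctgf was most like Tgfb3 (0.97), Cpe (0.95) and Fam46b (0.95). Acta2, over 35 arrays, was most like Tagln (0.97), Myh11 (0.96) and Cpe (0.95).

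Tgfb2 was most like Tmem22 (0.92), Ncald (0.92) and Ptprf (0.91). Inhba was most like Dgkg (0.96), Gna14 (0.90) and Lrrc1 (0.88). Tgfb1 was most like Rhog (0.87), Tcirg1 (0.86) and Sh3bgrl3 (0.83). The neighbours of Postn were collagen genes and a lysyl oxidase relative, Col4a1 (0.91), Col5a2 (0.90) and Loxl2 (0.90). Fn1 was most like Col14a1 (0.86), Smpd3 (0.84) and Has2 (0.81), and Lox was most like Egfr (0.94), C1s (0.94) and Tmeff2 (0.93). Within scan days the r of all these pairs ran from 0.76 for Fn1 with Has2 to 0.99 for Acta2 with Myh11.

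Several genes had high values with more than 1 list of cell type markers. Each r over 36 arrays (35 for Acta2) is given with rho, r without the 2 arrays farthest in the mean of that list, which differ between lists, and r within scan days, in that order. For the pericyte and smooth muscle markers, which hold none of the 9 genes, the 2 arrays were LFC week 18 and HF5 week 3. Acta2 had r 0.91 with them (0.85, 0.81 and 0.96), Ctgf 0.88 (0.91, 0.90 and 0.93), Tgfb3 0.87 (0.92, 0.88 and 0.94) and Tgfb2 0.84 (0.90, 0.85 and 0.85). Inhba had r 0.23 (0.77, 0.89 and 0.21) and Lox 0.86 (0.53, 0.48 and 0.90). Postn had r 0.78 (0.32, 0.22 and 0.89), and its relation to these markers rests on those arrays. With the endothelial markers, where the same arrays were the farthest, r was 0.85 for Acta2 (0.63, 0.61 and 0.97), 0.85 for Postn (0.67, 0.59 and 0.89) and 0.81 for Lox (0.50, 0.41 and 0.86).

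With the fibroblast markers, where HFC day 1 and LFC week 18 were the farthest, Lox had r 0.87 (0.58, 0.61 and 0.95) and Fn1 0.58 (0.79, 0.82 and 0.64). Fn1 had r 0.64 with the macrophage markers (0.57, 0.52 without HFC week 6 and HFC day 1, and 0.44). Tgfb1 had r 0.64 with the T cell markers (0.58, 0.61 without HF75 week 9 and HF5 week 3, and 0.59) and 0.64 with the B cell markers (0.61, 0.60 without HF5 week 3 and HFC week 3, and 0.63). Inhba had r -0.77 with the adipocyte markers (-0.78, -0.82 without LFC day 6 and LFC week 18, and -0.63).

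With the digestion response genes, where LFC week 12 and HF20 week 12 were the farthest, Inhba had r 0.74 (0.73, 0.70 and 0.75). Tgfb2 had 0.71 (0.82, 0.63 and 0.83) and Tgfb3 0.70 (0.84, 0.73 and 0.72). Ctgf had 0.68 (0.84, 0.66 and 0.70) and Acta2 0.65 (0.83, 0.66 and 0.70). With the epithelial markers, where HF5 week 6 and LFC week 6 were the farthest, Inhba had r 0.75 (0.75, 0.71 and 0.54), Ctgf 0.64 (0.71, 0.64 and 0.60) and Tgfb2 0.62 (0.72, 0.62 and 0.58). Inhba thus had values of similar size with the digestion response, epithelial and, in the other direction, adipocyte lists.

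**Figure D4:**
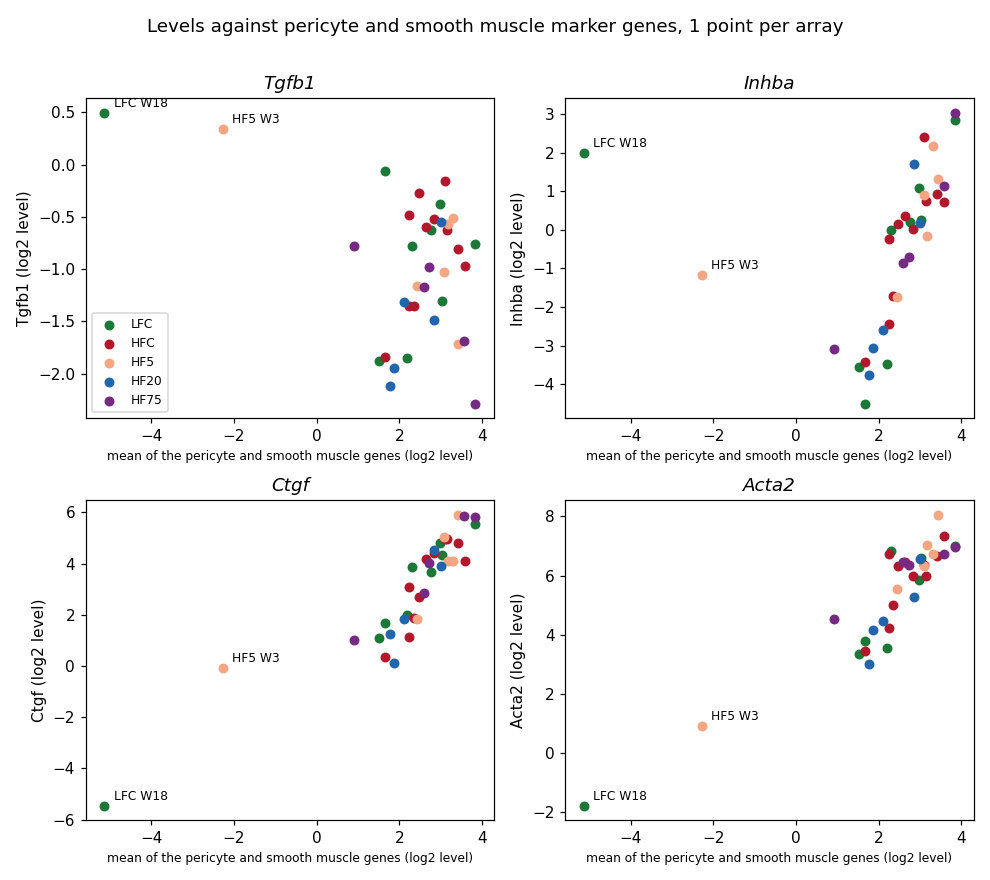
Level of Tgfb1, Inhba, Ctgf and Acta2 (log2) against the mean level of the 10 pericyte and smooth muscle markers (log2), 1 point per array, 36 arrays (35 for Acta2), coloured by diet. Ctgf (r 0.88) and Acta2 (r 0.91) climb with the markers, Inhba does so on all arrays but LFC week 18 and HF5 week 3 (r 0.89 without them), and Tgfb1 shows no such climb.

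Because Acta2, Tgfb2 and the smooth muscle genes moved together across arrays, their promoters are shown, as RefSeq gives them in build GRCm38.p6 for the 250 bases before the start of the gene. A promoter was available for 5 of the 9 genes (Tgfb1, Tgfb2, Inhba, Acta2 and Postn) and not for Tgfb3, Ctgf, Fn1 and Lox. The motifs searched on both strands were the CArG box, the element that serum response factor binds, the same box with 1 C or G in its core, and TATAAA, in capitals where found. CAGAC and TGANTCA, known from Smad and AP-1 binding, were searched too and are not marked. A CArG box was found in 1.47% of 32851 promoters of this length, the box with 1 C or G in 7.24%, TATAAA in 12.4%, CAGAC in 42.2% and TGANTCA in 6.75%. Acta2 (chr19:34255374-34255623, minus strand) held 2 boxes with 1 C or G in the core, and Myl9 (chr2:156775214-156775463, plus strand), one of the smooth muscle genes, held 1 CArG box and 1 such variant. Tgfb2 (chr1:186705990-186706239, minus strand) held TATAAA and no CArG box. Each sequence runs 5′ to 3′ on the strand of its gene.
Acta2: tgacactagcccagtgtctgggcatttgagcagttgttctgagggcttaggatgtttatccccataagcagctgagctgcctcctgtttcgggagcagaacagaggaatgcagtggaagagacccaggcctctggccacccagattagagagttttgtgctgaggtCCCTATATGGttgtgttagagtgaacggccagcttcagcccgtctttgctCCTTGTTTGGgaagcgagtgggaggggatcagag
Myl9: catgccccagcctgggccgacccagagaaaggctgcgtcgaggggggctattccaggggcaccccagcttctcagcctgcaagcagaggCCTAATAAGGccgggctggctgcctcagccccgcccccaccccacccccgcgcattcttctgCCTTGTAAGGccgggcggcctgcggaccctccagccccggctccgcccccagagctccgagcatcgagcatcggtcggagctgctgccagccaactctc
Tgfb2: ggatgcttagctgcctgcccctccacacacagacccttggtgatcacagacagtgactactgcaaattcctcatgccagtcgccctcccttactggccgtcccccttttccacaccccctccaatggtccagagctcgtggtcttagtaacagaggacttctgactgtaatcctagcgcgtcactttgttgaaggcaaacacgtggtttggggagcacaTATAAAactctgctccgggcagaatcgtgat

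Of the 14 smooth muscle genes, 10 had a promoter in the table, and 3 of these (Acta2, Myl9 and Srf) held a CArG box or its variant, 30.0%, beside 9.78% of 27025 genes. Inhba held TATAAA once, and the Tgfb1 promoter held none of the motifs. For Postn, the promoter at chr3:54360857-54361106 held TATAAA once, and the other, at chr3:54359017-54359266, held no TATAAA. A match describes these letters in this window and is no evidence of binding.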

How the data were processed

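One-colour arrays measured 40628 probes in 38 of the 40 samples, from 30 slides and 15 scan days. The deposited files hold Agilent Feature Extraction output (version 10.5.1.1 per the file headers, 9.1 in the submitters' notes), and the unit used was the intensity that the authors' scanner software background-subtracted and spatially detrended, not normalized between arrays. The HF75 file of week 9 holds values rounded to 3 significant digits. The deposited table of fold changes holds log2 values of the authors, and only its gene symbols were used. The 40 deposited columns of values per sample were not used. The arrays named HF20 and HF75 at week 18 were left out because their labels conflict.

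Intensities were taken as log2 and shifted to the 75th percentile of each array. Dimmer values, not well above background, were set to the lowest level of the array that cleared this mark, and outlier spots were dropped. Probes were tested where 50% or more of the arrays in 1 of the groups cleared it. R 4.3.3 with limma 3.58.1 gave the comparisons, blocked by time point from the labels, with a Benjamini-Hochberg threshold of 0.05. For late against early, the time point was a random block, with a consensus correlation of 0.212 from evenly spaced probes. The pairing was checked by the correlation of the arrays at a time point after the group means were subtracted, which ran from -0.289 at day 1 to 0.681 at week 0 for HFC with LFC, and was not over 0.1 in every pair. The code was tested on simulated data. Python 3.11.15, NumPy 2.4.6, pandas 2.3.3 and matplotlib 3.10.9 were used for the other steps. With 1 array per diet and time point, 5 to 11 pairs limit the precision.

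Genes are named where they belong to the 9, to the largest 1 or 2 of a list, to the genes of a list that passed, or to the 3 most alike in level. Lists were receptors and co-receptors, Smads and Smad regulators, latent complex and activation genes, activin family and secreted inhibitors, TGF-beta response genes, smooth muscle and myofibroblast genes, matrix and crosslinking genes, and cell type markers. The members and lists were chosen with earlier results of these data known. Alternatives were other background corrections, scalings, filters, probe summaries, blocks and tests, same-slide pairs, and leaving out arrays.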

Additional observations from a re-analysis of the deposited data

Results flagged for a closer look

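A pair of arrays lay far from the others of their diet. Acta2 in HF5 at week 3 was at 0.91, the lowest of 6 arrays, with the nearest at 5.53. Acta2 in HF75 at week 9 was at 4.53, the lowest of 5 arrays, with the nearest at 6.35. Chance picks out about 1 in 20 groups checked in this way, and the groups of all 9 genes in HF5, HF20 and HF75 were checked.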

How the results depend on the processing

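Of 1023 differences of the 9 genes under the alternatives, 934 kept direction and side of the threshold and 88 turned direction, 0 of which passed. Lox in HF75 passed only without a filter on dim probes (adjusted limma p 0.0123). The values that turned follow, grouped by alternative, with leave-one-out as ranges. With normexp background correction they were, in HF5, Tgfb1 at -0.0529, Inhba at 0.0293 and Lox at 0.0234, in HF75 Inhba at 0.0288, and late against early Tgfb3 at -0.0131, Ctgf at 0.0309, Acta2 at 0.0991 and Lox at 0.0112. With quantile normalization they were Tgfb1 at 0.2412 in HFC against LFC, 0.2488 late against early and -0.4699 in the diet effect (late minus early), Inhba at -0.4577 there, Lox at 0.0128 in HF5 and Acta2 at -0.3950 in HF75. With dim values kept, Tgfb1 in HFC against LFC was 0.0841. With the mean over probes, Acta2 was -0.0591 in HF75 and, late against early, Acta2 was 0.2349, Fn1 -0.0598 and Lox 0.0784. With the scan day as a block, Tgfb1 was 0.0827 in HFC against LFC, Ctgf 0.3356 in HF75 and Inhba -0.5831 in the diet effect. With the slide as a random block, Ctgf was 0.0235 late against early. In pairs on the same slide, HF5 gave Tgfb1 -0.2101, Tgfb2 0.0092, Tgfb3 0.3635, Inhba 0.4516, Ctgf 0.9263, Acta2 0.6767, Postn 0.5410, Fn1 0.7529 and Lox 0.7277, late against early gave Tgfb3 -0.2395, and the diet effect gave Tgfb2 -1.0150. Without week 3 and day 14, late against early, Tgfb2 was -0.1230 and Tgfb3 -0.0843. Without week 18 as well, Tgfb1 was 0.1103 and Ctgf -0.0500 in HFC against LFC, and late against early Ctgf was 0.5542, Acta2 0.1522 and Lox 0.5448. Leave-one-out turned further values, given here as lowest to highest. In HFC against LFC, Tgfb1 ran from -0.1532 to 0.1613. In HF5, Tgfb1 ran from -0.1590 to 0.1306, Tgfb3 from -0.7272 to 0.1028, Inhba from -0.3928 to 0.2234, Ctgf from -1.0414 to 0.3729, Acta2 from -0.7997 to 0.5799, Postn from -0.5428 to 0.0499, Fn1 from -0.6700 to 0.0325 and Lox from -0.5379 to 0.3715. In HF75, Ctgf ran from -0.5197 to 0.1639 and Acta2 from -0.0621 to 0.2489. Late against early, Tgfb1 ran from -0.2203 to 0.0688, Tgfb2 from -0.1244 to 0.6796, Tgfb3 from -0.2075 to 0.6668, Ctgf from -0.5400 to 0.7509, Acta2 from -0.4209 to 0.3531 and Lox from -0.3467 to 0.4843. In the diet effect, Inhba ran from -0.5831 to 0.9144. Counts of probes that passed follow. For HFC against LFC, pairs on the same slide, which hold the weak LFC array of week 3, gave 16. For HF75 against HFC, no filter gave 7594, of which 5516 were dim on every array, and a filter on every array gave 150. The scan day as a block gave 0, from 2 pairs scanned on the same day. No replicate block (no pairing by time point) gave 1, and the t-test gave 0. Leave-one-out gave 37 to 335. For late against early, a filter on every array gave 2, the slide as a random block gave 1, no replicate block gave 1, and leave-one-out gave 0 to 2. For the diet effect, pairs on the same slide, with that weak array among them, gave 175. Leave-one-out gave 0 to 0 in the other comparisons. With normexp the median over all probes moved from -0.07 to -0.18 in HFC against LFC, from 0.08 to -0.32 in HF20 and from -0.52 to 0.68 in the diet effect. For late against early it moved from 0.01 to -0.25, and to 0.25 with quantile normalization. In HF5 it moved to -0.18 with normexp. The cause was not tested. Slide as a random block and same-slide pairs were not run for HF20 and HF75, and the scan day block was not run for late against early. Leaving out week 18, the list medians without arrays, the correlations within scan days and the sign-flip test were chosen after seeing the data. Signal over background limits Tgfb2, Inhba and Lox, and saturation limits Acta2.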
